A study of Yucca flaccida with 12 samples.

Results

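The transcripts described here were counted in variegated leaves of Yucca flaccida 'Golden Sword', an ornamental monocot kept in vitro, and were at or near 0 in unvariegated leaves. They were chosen by their counts. A member belonged to the largest assembly group of the deposited transcript set (identifiers that begin with Cluster-20123), had at least 100 counts summed over the 6 variegated libraries, at least 3 counts in at least 5 of them, and at most 3 counts summed over the 6 unvariegated libraries. The 150 genes with the highest mean CPM (the count scaled to a common library total) were left out, which removed 0 members. The rule found 73 genes, among 103846 in the main group and 185746 in all. The difference between variegated and unvariegated libraries thus chose the members and is given below as a description. Calls from that contrast are listed once for reference and test nothing about the members.

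The study compared 4 groups of 3 libraries of poly(A) RNA, all of the genotype Golden Sword, untreated and taken from the second youngest leaf: the edge (VE) and centre (VC) of variegated leaves, and the edge (UE) and centre (UC) of unvariegated leaves. Which zone was pale is not stated in the labels. Neither is the plant behind each library, so a p-value here speaks to the spread between libraries only, and that spread may be technical. Counts per library summed to between 13139086 and 20306020. Each gene is a cluster of transcripts assembled without a genome, and its identifier carries no gene name in the files, so no function, role or sequence is given for any member.

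Leaf variegation is a pattern of zones that differ in colour, often because some cells hold chloroplasts that lack chlorophyll. It can arise from a chimera, in which cell layers of different genotype build different parts of the leaf, or from mutations that affect chloroplast development in some cells only. In a transcript set assembled from pooled reads, a cluster is any group of assembled sequences that share reads. A cluster can stand for a gene, an allele or a fragment of a transcript, and a fragment cannot be told from a gene by its count alone. No sequences were used here, so the organism from which each cluster came was not checked. RNA was taken from whole pieces of leaf, so fewer cells that carry a transcript and less of it per cell cannot be told apart.

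VE replicate 1 (VE1) stood apart for these transcripts and is given with and without below. It held 72.4% of the members' summed counts over the variegated libraries, a share weighted towards the most abundant members. The median share of a single member in VE1 was 60.6%. For the 35926 other main-group genes that met the same minimum in variegated libraries, the median share in VE1 was 15.2%. Its total of 17914144 counts and its 106060 genes detected lay within the range of the other libraries. What sets VE1 apart was not tested. The summed level of the 73 members was 5978 CPM in VE1, 316 in VE2, 641 in VE3, 292 in VC1, 488 in VC2 and 680.1 in VC3. VE1 was 8.79 times the next highest library, and the other 5 lay close together, with centre and edge intermixed. In the unvariegated libraries the sum was 0.247 CPM in UE1, 0.225 in UE2, 0.313 in UE3, 0.199 in UC1, 0.276 in UC2 and 0.148 in UC3. Over both zones this was 147892 counts in variegated and 22.8 in unvariegated libraries, as the rule sets. Members made up 0.598% of all counts in VE1.

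**Figure D1:**
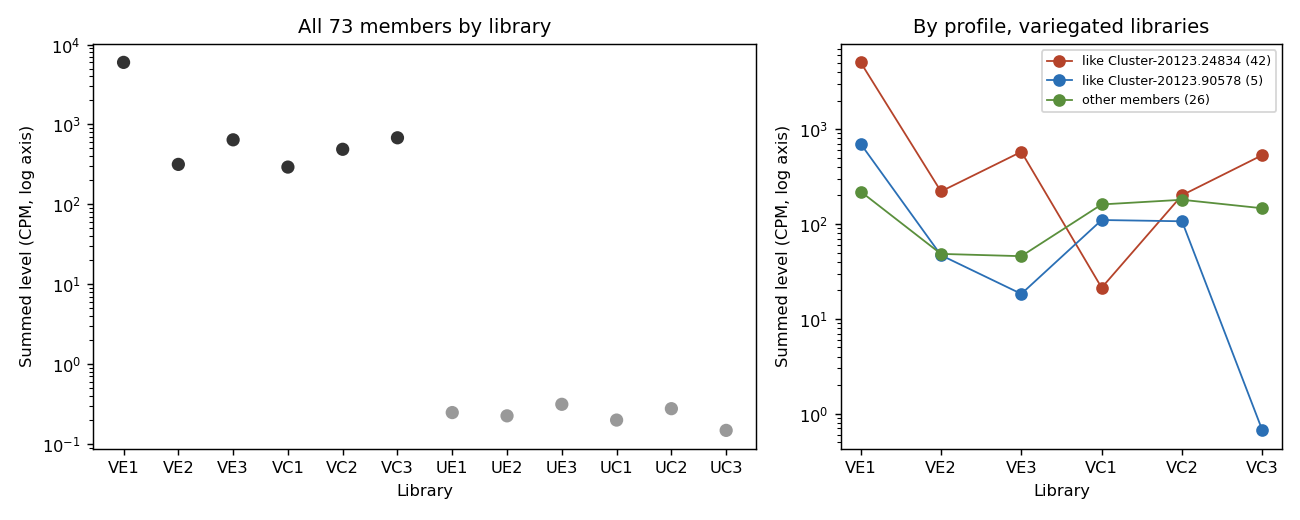
Summed level of the members in CPM (log axes): all 73 members in each of the 12 libraries at left, and by profile over the variegated libraries at right (lines only join points of a set). VE1 lies at 5978 CPM against 292 to 680.1 CPM in the other variegated libraries, and the unvariegated libraries lie between 0.148 and 0.313 CPM.

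Most members had no count at all in unvariegated leaves: 61 of the 73 were at 0 in all 6 libraries, and 12 had between 1 and 3 counts. A count of 0 allows up to 3 counts over the 6 libraries, or 0.0305 CPM, and limits of this kind cover counting error only. Against that floor the members at 0 were at least 34.2-fold (Cluster-20123.80798) to at least 4150-fold (Cluster-20123.90578) higher in the variegated libraries, pooled over all 6. Without VE1 these bounds ran from at least 16.6-fold (Cluster-20123.13580) to at least 1452-fold (Cluster-20123.56334), and that of Cluster-20123.90578 was at least 1120-fold. Cluster-20123.24834 had 65375 counts in variegated and 3 in unvariegated libraries. Its ratio, scaled to library totals, was 21248, with a 95% exact counting interval of 7270 to 103034. Without VE1 it was 5508 (1884 to 26710). The label of this set, transcripts seen only in variegated leaves, therefore held as a statement of depth for the 61, while a few reads of the other 12 were counted in unvariegated leaves. Those few reads were spread out: 3 members had counts in UE1, 2 in UE2, 4 in UE3, 2 in UC1, 3 in UC2 and 3 in UC3.

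Near the thresholds, Cluster-20123.28084 with 103.5 and Cluster-20123.80798 with 105.2 counts over variegated libraries were just inside, and Cluster-20123.17584 with 99 and Cluster-20123.15412 with 97 just outside. On the unvariegated side Cluster-20123.24834 with 3 and Cluster-20123.75996 with 2.75 counts were just inside. Cluster-20123.87488 with 5 and Cluster-20123.77116 with 5.88 counts were just outside. Another 21 main-group genes that met the minimum in variegated libraries, these last 2 included, had more than 3 and up to 10 counts over the unvariegated ones. The members' totals over variegated libraries ran from 103.5 to 65375 counts, with a median of 448.

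The rule is symmetrical in name, but the list was not mirrored in number. With variegated and unvariegated libraries exchanged, the same rule found 9 main-group genes. Their totals were 102.3 to 404 counts over the 6 unvariegated libraries, and the library of highest CPM differed among them: UC1 for 3, UE1 for 2 and each other library for 1. Their median coefficient of variation (SD divided by mean, over the 6 libraries of high counts) was 0.66, beside 1.33 for the members and 0.284 for the 35926 other main-group genes. Outside the main group, 123 genes met the same count rule.

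Levels over the 6 variegated libraries fell into recognisable profiles. The highest library was VE1 for 57 of the 73 members, VC2 for 6, VC1 for 5, VE2 for 3, VC3 for 2 and VE3 for 0. Among the other main-group genes VE1 was highest for 9.85% and VC3 for 41.4%. Because a member could meet the rule's minimum mainly through VE1, the number highest there depends in part on the rule. The lowest library was VC1 for 44 members. Members were sorted by the Pearson correlation of log2 (CPM + 0.1) over the 6 variegated libraries with the member of highest mean CPM, Cluster-20123.24834, and then with the next, Cluster-20123.90578. A correlation of at least 0.9 placed 42 members with the former and 5 with the latter, and 26 with neither. These sets were made after the values were seen, on the same 6 libraries, so they describe the members and carry no test.

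**Figure D2:**
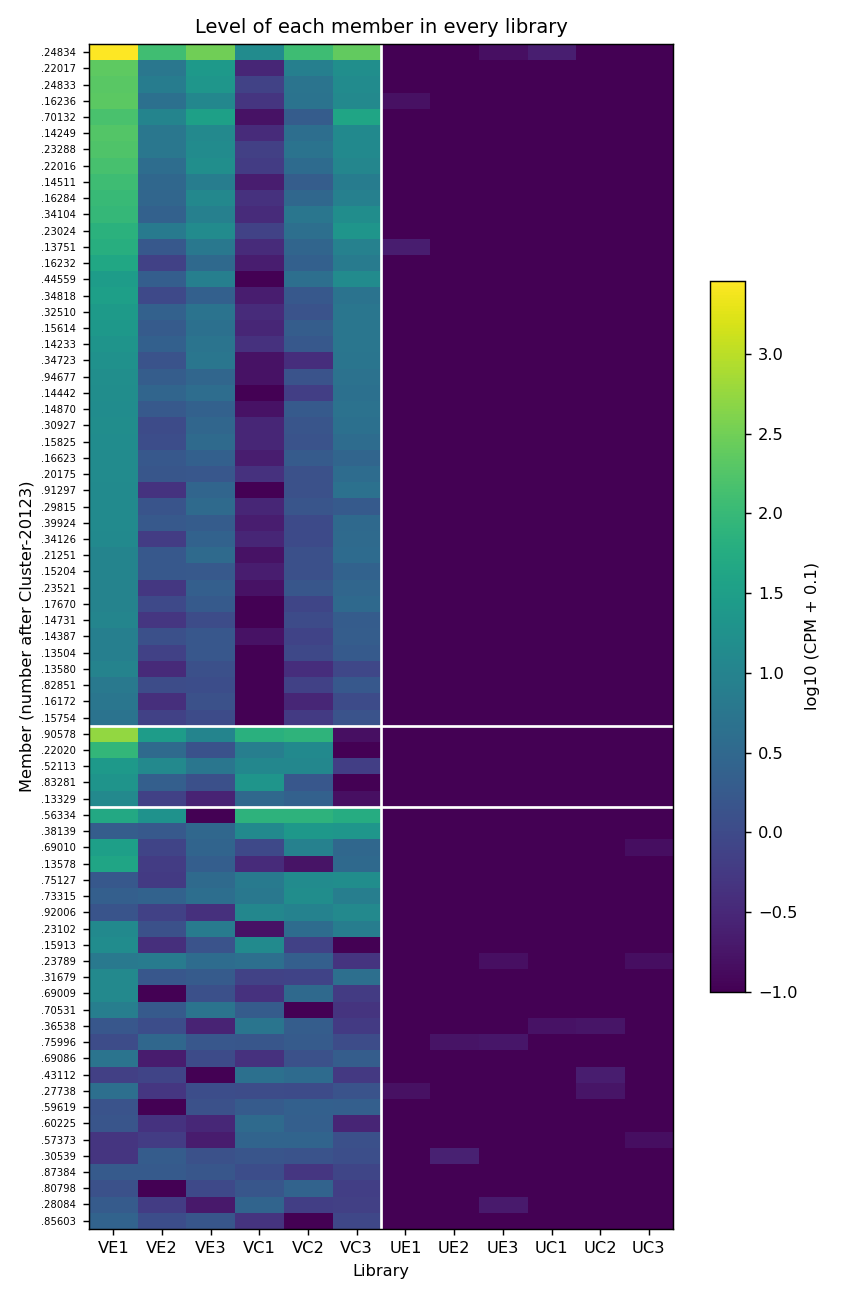
Level of each of the 73 members (rows) in each of the 12 libraries (columns), as log10 (CPM + 0.1); white lines part the 42, 5 and 26 members of the profiles and the variegated from the unvariegated libraries. VE1 is the brightest column for 57 members, VC1 the darkest for the upper set and VC3 for the middle one.

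Cluster-20123.24834 alone held 51438 of the members' counts in VE1. Its level was 2871 CPM in VE1, 125 in VE2, 313 in VE3, 14.1 in VC1, 116 in VC2 and 240 in VC3. The zones overlapped: VE1 was far above the rest, VE2 stood beside VC2, and VC1 was lowest. Without this gene the other 72 members summed to 3107 CPM in VE1 and to 190 to 440 CPM in the other variegated libraries, so VE1 was 7.06 times the next library without it. Per length, in the deposited FPKM (fragments scaled to transcript length and library size), Cluster-20123.24834 had a mean of 760 over the 6 variegated libraries. Its neighbour by identifier number, Cluster-20123.24833, had the highest mean of the members, 941 FPKM, over an effective length of only 45.2 bases.

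The 42 members of this profile kept much the same order of libraries, which their choice by correlation favours. All 42 were highest in VE1 and lowest in VC1, and in all 42 both VE3 and VC3 lay above both VE2 and VC2. The next highest library was VC3 for 31 and VE3 for 11. Their median levels were 15.8 CPM in VE1, 1.58 in VE2, 3.35 in VE3, 0.13 in VC1, 1.41 in VC2 and 4.68 in VC3. In VC1 only 19 of the 42 had at least 3 counts and 10 were at 0, whereas all 42 had at least 3 counts in each other variegated library. Replicates 3 of both zones thus stood above replicates 2 of both zones, while the libraries numbered 1 lay at opposite ends, VE1 at the top and VC1 at the bottom. The 6 points behind each correlation are the same libraries for every member, with the same depth. Among the 35926 other main-group genes, 119 (0.331%) reached 0.9 with Cluster-20123.24834.

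Named members of this set show the same steps. Cluster-20123.22017 had 224 CPM in VE1, 5.78 in VE2, 24.3 in VE3, 0.195 in VC1, 8.2 in VC2 and 16 in VC3. Cluster-20123.16236 had 212 CPM in VE1, 4.26 in VE2, 11.7 in VE3, 0.391 in VC1, 4.96 in VC2 and 12.3 in VC3. Cluster-20123.14249 had 187 CPM in VE1, 5.84 in VE2, 12.7 in VE3, 0.26 in VC1, 3.93 in VC2 and 12.7 in VC3. In each of these, VE1 was above all other libraries by 9.19-fold or more and the remaining edge libraries overlapped the centre. Cluster-20123.70132 had 148 CPM in VE1, 10.3 in VE2, 34.2 in VE3, 0.0651 in VC1, 1.86 in VC2 and 42 in VC3. There, as in Cluster-20123.16236, VC3 was the next highest library, and VC2 lay well below VE2.

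Taken as a sum, these transcripts kept to a narrow range of proportions, while single members varied more. The other 41 members of the set had together 76.1% of the counts of Cluster-20123.24834 in VE1, 75.9% in VE2, 84.6% in VE3, 51.4% in VC1, 73% in VC2 and 122% in VC3. While the counts of Cluster-20123.24834 itself spanned 216 to 51438, this proportion stayed between 51.4% and 122%. Cluster-20123.24833 had 7.21% of its counts in VE1, 5.96% in VE2, 7.13% in VE3, 4.63% in VC1, 4.45% in VC2 and 5.82% in VC3. Cluster-20123.22017 had 7.8% in VE1, 4.61% in VE2, 7.78% in VE3, 1.39% in VC1, 7.05% in VC2 and 6.67% in VC3, the low value resting on 3 counts in VC1. Cluster-20123.70132 was the least steady of those with counts in every variegated library, at 5.16% in VE1, 8.24% in VE2, 10.9% in VE3, 0.463% in VC1, 1.6% in VC2 and 17.5% in VC3. Over the 31 members with counts in every variegated library, the highest proportion was 1.41 to 37.8 times the lowest, with a median of 3.32. The other 10 were at 0 in VC1. Because the set was made by likeness to Cluster-20123.24834, steady proportions are part of how it was chosen.

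**Figure D3:**
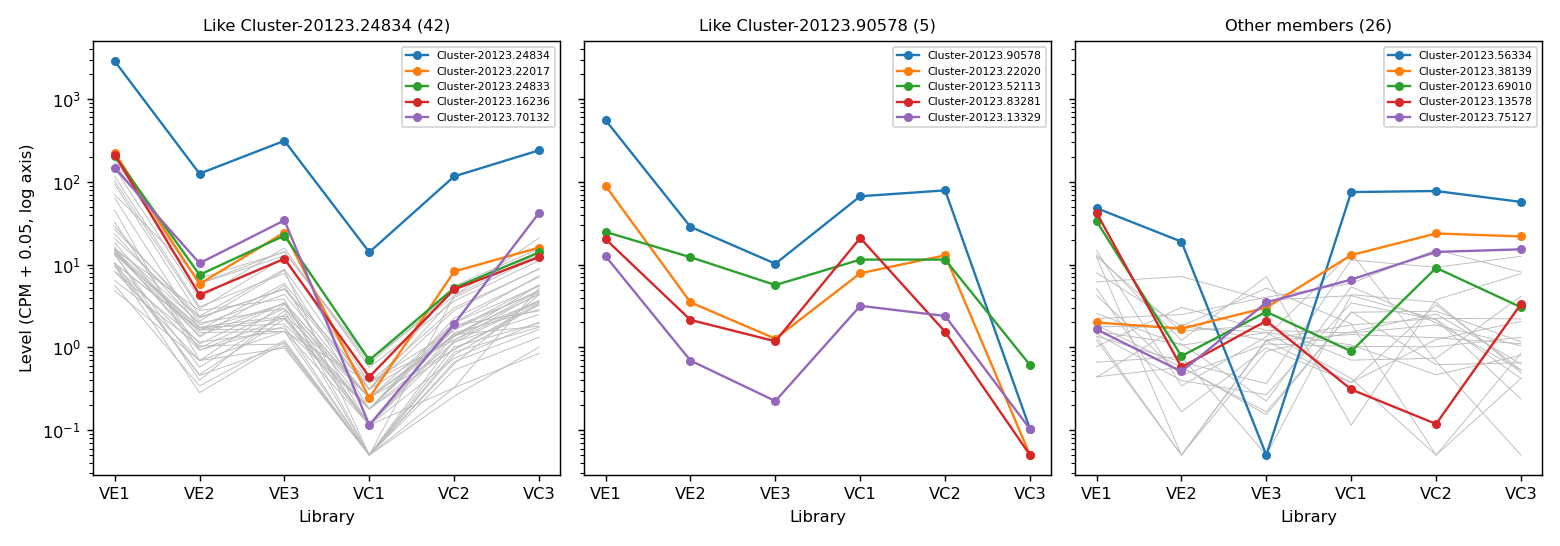
Level (CPM + 0.05, log axis) of each member over the 6 variegated libraries, in panels for the 42 members like Cluster-20123.24834, the 5 like Cluster-20123.90578 and the other 26; the 5 members of highest mean CPM in each panel are coloured and lines only join the points of a member. The dip in VC1 marks the panel at left, the drop in VC3 the middle panel, and the panel at right holds the members in neither profile.

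A smaller set of 5 members was lowest in VC3 rather than VC1. Cluster-20123.90578 had 555 CPM in VE1, 28.5 in VE2, 10.2 in VE3, 66.9 in VC1, 78.7 in VC2 and 0.0531 in VC3, the last from 1 count. Cluster-20123.22020 had 89 CPM in VE1, 3.44 in VE2, 1.22 in VE3, 7.81 in VC1, 12.9 in VC2 and 0 in VC3. Both were highest in VE1 and had next to nothing in VC3, whose library was the deepest of the variegated ones. The other 3, Cluster-20123.52113, Cluster-20123.83281 and Cluster-20123.13329, were also lowest in VC3, at 0.561, 0 and 0.0531 CPM. In Cluster-20123.83281 VC1 with 20.9 CPM was level with VE1 with 20.2 CPM. The set summed to 701 CPM in VE1, 110 in VC1, 107 in VC2 and 0.667 in VC3. Against Cluster-20123.24834 its counts came to 24.4% in VE1, 783% in VC1 and 0.278% in VC3, so the proportion between the sets was not kept. Of the 5 members, 4 were highest in VE1.

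The remaining 26 members had no profile in common, and VE1 was less prominent among them. Both members used for the sorting were highest in VE1, so this follows in part from how the sets were made. Their sum was 220 CPM in VE1, 48.4 in VE2, 45.8 in VE3, 161 in VC1, 180 in VC2 and 147 in VC3, and 11 of the 26 were highest in VE1. The median share of a member's variegated counts that lay in VE1 was 23.2% here, against 63.9% in the set of 42. This set held all 9 members whose edge and centre libraries did not overlap in CPM: in 7 the 3 VC libraries were above the 3 VE libraries, and in 2 below. Over all 59225 genes tested, 22.9% had VC above VE and 3.62% VE above VC by this measure. On CPM scaled by trimmed mean of M values (TMM), which takes up differences in composition between libraries, the members' numbers were 6 and 4 and the shares over all genes 9.51% and 10.1%. For the members, both counts were thus at or below the background.

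Centre and edge of variegated leaves were then compared across all genes, a contrast that the rule did not use because it treats the 6 variegated columns alike. Of the 73 members 72 had enough counts to be tested; Cluster-20123.28084 did not. With edgeR's quasi-likelihood F test, and p adjusted over all 59225 genes after Benjamini and Hochberg, 2 members were called higher in VC and 0 lower. DESeq2 called 3 and limma on log2 (FPKM + 1) called 6, of which 1 was lower, where 3.59% and 3.03% of all genes were called by the same methods. At an unadjusted p below 0.05 edgeR had 19 of 72. Over all genes tested 0.954% were called, 0.383% as higher in VC and 0.571% as lower, and 12.4% had an unadjusted p below 0.05. With a variegated library left out, the members at this unadjusted p in edgeR numbered from 4 (without VC2) to 29 (without VC3). Without VE1 they numbered 5. The share over all genes was not taken for these fits, so these numbers cannot be set against a background. With 2 calls, the members' share rests on too few genes to be set against the background.

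Cluster-20123.38139 was the clearer of the 2 called. Its level was 1.95 CPM in VE1, 1.63 in VE2 and 2.97 in VE3, and 13 in VC1, 23.7 in VC2 and 21.8 in VC3. All 3 centre libraries were above all 3 edge libraries, with means of 19.5 ± 5.74 and 2.18 ± 0.698 CPM (SD, n = 3 each). VC exceeded VE by 2.82 on the log2 scale (SE 0.32), with an adjusted p of 0.0143 in edgeR. The call was lost without VE1, VE2, VC2 or VC3, with adjusted p in edgeR of 0.0588, 0.0642, 0.088 and 0.05002 in this order (range over all alternatives 5.03e-11 to 0.088). The fold change stayed between 2.64 and 3.15 throughout.

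Cluster-20123.92006 had 1.31 CPM in VE1, 0.618 in VE2 and 0.315 in VE3, and 11.3 in VC1, 9.23 in VC2 and 12.5 in VC3. Again the zones did not overlap, with means of 11 ± 1.67 CPM in VC and 0.749 ± 0.512 in VE (SD, n = 3 each). The difference was 3.5 on the log2 scale (SE 0.55), with an adjusted p of 0.0381 in edgeR. This call was lost without VE2, VE3, VC1, VC2 or VC3 (adjusted p = 0.149, 0.0654, 0.0749, 0.144 and 0.108 in edgeR). It was also lost with the replicate number as a block and with only the 6 libraries compared (0.0515 and 0.0525), in a range of 1.14e-06 to 0.149 over all alternatives. The difference stayed between 3.1 and 4.24 with a library left out, and was 3.67 with the block and 3.53 with the 6 libraries. In neither called member was VE1 the highest library; it held 3.27% and 4.03% of their variegated counts.

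Other members with more RNA counted in the centre did not pass. Cluster-20123.75127 had 1.6 CPM in VE1, 0.461 in VE2 and 3.44 in VE3, and 6.54 in VC1, 14.2 in VC2 and 15.2 in VC3. Its zones did not overlap, and its log2 fold change was 2.36 (SE 0.65; edgeR adjusted p = 0.186), with a call in DESeq2 (adjusted p = 0.0358). Cluster-20123.73315, named after its values were seen, had 2.18 CPM in VE1, 2.44 in VE2 and 3.98 in VE3, and 5.88 in VC1, 15.1 in VC2 and 8.06 in VC3. The difference was 1.43 on the log2 scale (SE 0.42; edgeR adjusted p = 0.206). Cluster-20123.56334 stood at 48 CPM in VE1, 18.9 in VE2 and 0 in VE3, against 75.1 in VC1, 77.3 in VC2 and 57.1 in VC3. It had 0 counts in VE3 beside 860 in VE1, and its spread at the edge left it with a log2 fold change of 1.29 (SE 1.24; edgeR adjusted p = 0.776).

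At the other end, the members with the lowest fold changes were highest in VE1. Cluster-20123.14511 had 116 CPM in VE1, 3.04 in VE2 and 7.8 in VE3, and 0.13 in VC1, 1.93 in VC2 and 7.28 in VC3. Its log2 fold change of VC against VE was -4.2 (SE 1.61; edgeR adjusted p = 0.349) and -1.16 without VE1. Cluster-20123.16236 and Cluster-20123.14249, with values given above, had -4.13 and -4.05 (adjusted p = 0.275 and 0.358 in edgeR). For Cluster-20123.24834 the value was -3.62 (SE 1.14; edgeR adjusted p = 0.195), and -1.19 without VE1. For Cluster-20123.90578 it was -2.35 (SE 1.87; edgeR adjusted p = 0.711) and turned to 1.08 without VE1.

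Over the 72 tested members the median log2 fold change of VC against VE was -2.27, while it was 0.0014 over all genes tested. Without VE1 the medians were -0.45 and 0.03. With all libraries 61 members were lower and 11 higher in VC, and without VE1 49 were lower and 23 higher; 12 changed sign. In the set of 42 the median went from -2.47 to -0.76, in the set of 5 from -1.6 to 1.3, and among the other tested 25 from -0.45 to 1.06. In CPM, the summed members had means of 2312 ± 3179 in VE and 487 ± 194 in VC (SD, n = 3 each). Without VE1 the VE mean was 479. The log2 ratio of VC to VE of this sum was -2.25 with all libraries and 0.025 without VE1.

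**Figure D4:**
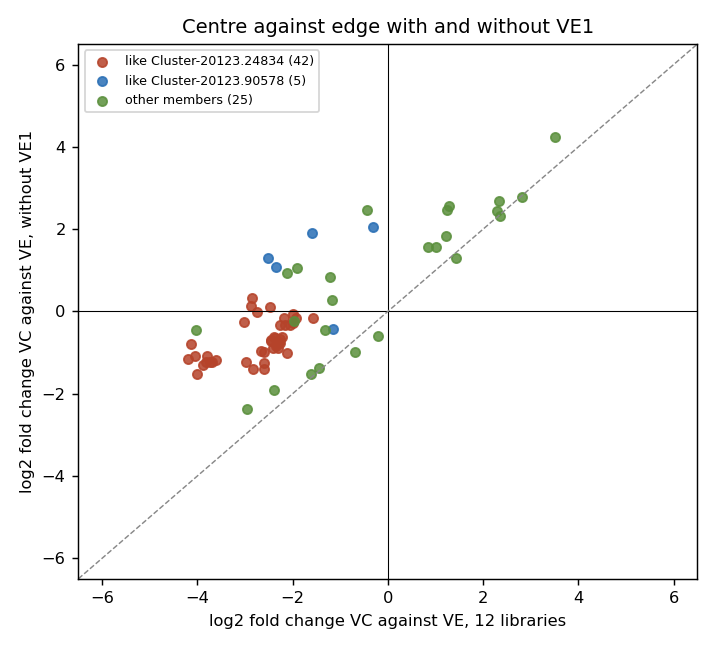
Log2 fold change of VC against VE from the edgeR fit for each of the 72 tested members, with all 12 libraries (x axis) and without VE1 (y axis); the dashed line marks equal values. The 42 members like Cluster-20123.24834 lie between -4.2 and -1.58 on the x axis and nearer 0 on the y axis, while 6 of the 11 members above 0 on the x axis shift by more than 0.5.

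In the comparison that the rule itself used, 32 of the 72 tested members were called higher in VE than in UE and 15 higher in VC than in UC by the same edgeR fit. The shares over all genes tested were 3.33% and 2.67%. Since members were chosen by this contrast, the calls were favoured in advance and test nothing about the members. They are listed for reference only and cannot be read as an excess over these shares.

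How reads were shared among clusters is a property that the rule did not use directly. The rule's limit on unvariegated counts can still bear on it, and the other main-group genes compared here had no such limit. The counting software shares reads that match several transcripts, which leaves counts that are not whole numbers. In 49 of the 73 members (67.1%) all 6 variegated counts were whole to within 0.001, against 27.4% of the 35926 other main-group genes. Counts that were not whole in at least 4 of the 6 libraries were found for 21 members (28.8%) and for 64.8% of the other genes. The profiles split along the same line. In the set of 42 like Cluster-20123.24834, 39 were whole in all 6 libraries. In the set of 5, 3 were whole. Among the other 26, 7 were whole and 18 were not whole in at least 4 libraries. Of the 2 called members, Cluster-20123.92006 had counts that were not whole in all 6 libraries and Cluster-20123.38139 in 1.

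Length was another. Effective length, worked out by dividing expected counts by FPKM, had a median of 721 bases over the members and 1028 bases over the other main-group genes. It was 593 bases in the set of 42, 1244 in the set of 5 and 1037 among the other 26, and ran from 45.2 to 3181 bases over all members. For the 9 genes of the exchanged rule the median was 1255 bases, and 7 of the 9 had counts that were not whole in at least 4 libraries. The 123 genes outside the main group had a median of 555 bases, and 102 of them were whole in all 6 libraries. These 123 also went with VE1: 119 were highest there, 90 had a correlation of at least 0.9 with Cluster-20123.24834 and 8 with Cluster-20123.90578. Summed, they stood at 1287 CPM in VE1, 122 in VE2, 198 in VE3, 63.4 in VC1, 130 in VC2 and 291 in VC3. In that sum the order of libraries was close to that of Cluster-20123.24834, with VE1 at the top and VC1 at the bottom. Whether length or read sharing played a part in the profiles was not tested.

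**Figure D5:**
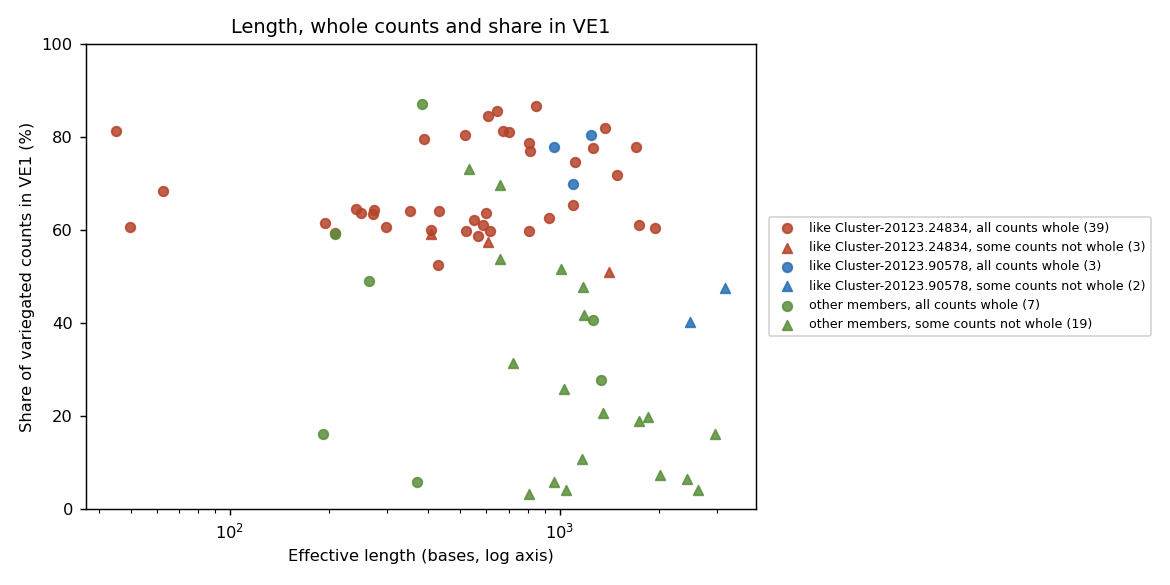
Effective length (bases, log axis) and share of variegated counts in VE1 (percent) for each of the 73 members; colours mark the profiles, circles members whose 6 variegated counts are all whole and triangles the others. Circles lie mostly above 50%, and triangles mostly at lower shares and longer lengths.

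Identifier numbers gave few neighbours. The longest run of successive numbers was 2, found 3 times. Cluster-20123.24833 and Cluster-20123.24834 are given above. Cluster-20123.22016 had 147 CPM in VE1, 3.85 in VE2, 15.8 in VE3, 0.521 in VC1, 3.58 in VC2 and 11.1 in VC3, close in order to its neighbour Cluster-20123.22017. Both pairs belonged to the set of 42. Cluster-20123.69009 had 12.2 CPM in VE1, 0 in VE2, 1.15 in VE3, 0.326 in VC1, 3.22 in VC2 and 0.484 in VC3. Its neighbour Cluster-20123.69010 had 33.3 CPM in VE1, 0.735 in VE2, 2.64 in VE3, 0.847 in VC1, 9.08 in VC2 and 3 in VC3, and both had counts that were not whole. Reads of this last pair were shared with other clusters, which makes each uncertain as a separate unit. Over the whole list, 36 of the 42 members like Cluster-20123.24834 had an identifier number below 36000, a bound set after the values were seen. So had 2 of the 5 like Cluster-20123.90578 and 8 of the 26 members in neither profile. No share below this bound was taken over the other main-group genes, so these numbers have no background.

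The steadiest and the most uneven members mark the range of the list. Cluster-20123.30539 had the lowest coefficient of variation over the 6 variegated libraries, 0.408, with 0.385 CPM in VE1, 1.87 in VE2, 1.16 in VE3, 1.38 in VC1, 1.26 in VC2 and 1.06 in VC3. VE1 was its lowest library. Cluster-20123.87384 followed at 0.456, with 1.74 CPM in VE1, 1.7 in VE2 and 1.47 in VE3, and 1.02 in VC1, 0.416 in VC2 and 0.753 in VC3. It is 1 of the 2 members with all edge libraries above the centre (log2 fold change -1.45; edgeR adjusted p = 0.386). Cluster-20123.75996 came next at 0.458, with VE2 the highest at 3 CPM. The most uneven was Cluster-20123.13578 at 2.08, with 42.1 CPM in VE1, 0.525 in VE2, 2.04 in VE3, 0.26 in VC1, 0.0689 in VC2 and 3.29 in VC3. Both steady members named with all 6 values had at most 32 counts in each library, so their order rests on few reads.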

How the data were processed

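Poly(A) RNA of 12 leaf libraries was analysed. The authors deposited expected counts and FPKM values per cluster of assembled transcripts. CASAVA 1.8, RSEM and Bowtie2 are named, per the submitters' processing notes; assembler, clustering and reference assembly are not given in the sources used here. Groups and replicate numbers come from the sample titles. The members, lists and tests were chosen with earlier results of these data known.

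The rule was applied to the deposited counts as they stand. CPM uses library totals. For tests, expected counts were rounded and genes kept by filterByExpr (minimum count 10, minimum total 15), which left 59225. Tests used glmQLFit (robust) and glmQLFTest of edgeR 4.0.16 in R 4.3.3 after TMM scaling, with all 12 libraries in 1 fit and a Benjamini-Hochberg adjusted p below 0.05. It was tested on simulated data with the same spread for every gene. That spread was below the one fitted for most members, so the outcome does not carry over to them. Standard errors (SE) come from the fold change on the log2 scale over the root of the F statistic. Effective length is the median over variegated libraries with at least 20 counts.

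Named members follow a rule: the 8 of highest mean CPM, those called, the 3 highest and 3 lowest fold changes, the 3 lowest and 3 highest coefficients of variation, the longest identifier runs, and those beside the thresholds. Members outside it (Cluster-20123.22020, Cluster-20123.52113, Cluster-20123.83281, Cluster-20123.13329, Cluster-20123.13580 and Cluster-20123.73315) were named after their values were seen. Alternatives were other scalings and filters, DESeq2 1.42.0, limma 3.58.1 on log2 FPKM, a replicate block, the 6 compared libraries only, other thresholds of the rule, and each library left out.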

Additional observations from a re-analysis of the deposited data

Results flagged for a closer look

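Over the 6 variegated libraries, the highest value lay far from the next in 50 of the 73 members, the gap divided by the whole range being above Dixon's 95% critical value for 6 values, and VE1 was the high library in 49 of these. Chance flags about 1 in 20 groups of normally distributed values. The ratio was taken on CPM without a log, so that rate need not hold here. The members also share libraries and are not independent. No share over all genes was taken, so the 50 are not set against a background. A member could also meet the rule's minimum total mainly through VE1, so the 50 depend in part on the rule. They cannot be read as an excess over 1 in 20. For the summed level of all members this ratio was 0.932, and for the sum without Cluster-20123.24834 it was 0.914. Among members like Cluster-20123.24834 it was 0.895 for Cluster-20123.24834, 0.892 for Cluster-20123.22017, 0.895 for Cluster-20123.24833, 0.944 for Cluster-20123.16236, 0.716 for Cluster-20123.70132, 0.933 for Cluster-20123.14249, 0.934 for Cluster-20123.14511 and 0.896 for Cluster-20123.22016. It was 0.858 for Cluster-20123.90578, 0.923 for Cluster-20123.13578, 0.736 for Cluster-20123.69009 and 0.744 for Cluster-20123.69010. In each of these VE1 was the library apart. Groups of 3 libraries are too small for this measure.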

How the results depend on the processing

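The number of members was 73 and became 33 when 3 counts were asked for in all 6 variegated libraries and 155 with no criterion per library; other thresholds gave 57 to 94, and leaving out a library 59 to 92. Without VE1 the rule found 59 genes, 57 of them among the 73. The 2 calls in VC against VE became 6 with limma on log2 FPKM plus 1, 1 with the replicate block and 1 with only the 6 libraries compared. Of all 59225 genes, 565 were called in the main fit and 1792, 644 and 136 in these. With a library left out, 0 to 2 members were called. It was 1 without VE1, VE3 or VC1, where 205, 193 and 608 of all genes were called. It was 0 without VE2, VC2 or VC3, where 115, 87 and 224 of all genes were called. In these last fits 27, 4 and 29 members had an unadjusted p below 0.05 in edgeR, with no share over all genes taken. The cause was not tested. Same-numbered VE and VC libraries had correlations of deviations of 0.107, 0.0169 and 0.13. Each library correlated best with its own number, a hint from the data only, and the numbers were not taken as pairs. The median log2 fold change of members was -0.45 to -3.32 with a library left out. The log2 ratio of the summed level in VC to VE was -2.25, and -2.77 to 0.025 with a library left out, the latter without VE1. Members whose zones do not overlap numbered 9 in all, 2 with VE above VC and 7 with VC above VE. With a library left out these were 9 to 37 (37 without VC3, 21 without VE2), 2 to 26 and 7 to 11. Fewer libraries loosen the criterion in every such setting. Members with VE above VC numbered 26 without VC3 and 14 without VE2, and 2 to 4 without VE1, VE3, VC1 or VC2. Why these settings differ was not tested. Over all genes tested the shares with a library left out were 33% to 44.2% in all. They were 4.95% to 7.9% with VE above VC (7.9% without VC3, 5.83% without VE2) and 27.3% to 38.1% with VC above VE. Among members, 4 had VE above VC on TMM-scaled CPM. The profile of Cluster-20123.90578, with settings added after the data were seen, held 3 members at a correlation of at least 0.95, and that of Cluster-20123.24834 held 36 to 45. Signs turned without VE1 in Cluster-20123.90578 (-2.91 to 1.08 with a library left out), Cluster-20123.69009 (-3.84 to 0.94) and Cluster-20123.69010 (-3.08 to 1.06). Cluster-20123.30539, at -0.2, was 0.10 with library totals only, 0.12 and 0.32 with limma on log2 FPKM plus 1 and plus 0.1, 0.045 with the replicate block, and -0.60 to 0.38 with a library left out. With library totals only the median of all genes moved by 0.33. DESeq2 gave no p for 1 member. The ratios of variegated to unvariegated libraries without VE1, given with the results, were added after the data were seen.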
